A study of Mus musculus with 12 samples.

Results

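The 9 genes described here, Klf2, S1pr1, Cd69, Cd44, Ms4a4b, Itgb7, Itgae, Il6ra and Cd24a, mark the last steps of thymocyte maturation and the exit of new T cells from the thymus. They were taken as every probe set of the array whose single gene symbol in the platform annotation was one of these 9, which gave 17 of 45101 probe sets. The values came from thymus of mice aged 7 to 8 weeks on 12 one-colour Affymetrix arrays, from 4 groups of 3 biological replicates. XXsry mice were gonadal males with 2 X chromosomes and Sry, the testis-determining gene. XX mice were gonadal females with 2 X chromosomes. XY-sry mice were gonadal males with a Y chromosome marked by a minus sign in the labels, and Sry. XY- mice were gonadal females with that Y chromosome and no Sry. In the mouse model to which these genotype names belong, the marked Y has lost Sry and the males carry Sry as an autosomal transgene, and the labels give neither the strain nor the site or promoter of a transgene. No group was a male with Sry in its normal place, and the labels give no treatment other than killing by cervical dislocation before the thymus was dissected and frozen.

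Thymocytes that have passed selection spend some days in the medulla as single-positive cells before they leave. Over this time they lose Cd24a and Cd69 and gain the transcription factor Klf2, which switches on S1pr1, the receptor for sphingosine-1-phosphate, a lipid that is scarce in the thymus and abundant in blood. Cd69 binds S1pr1 and draws it off the cell surface, so cells that still carry Cd69 are held back. The other genes encode surface molecules of mature or activated T cells: Cd44 binds hyaluronan, Itgae (CD103) and Itgb7 form the integrin that binds E-cadherin, Ms4a4b is a membrane protein of mature T cells, and Il6ra is the interleukin-6 receptor.

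The arrays matched their labels. The most abundant Xist probe set lay between 11.10 and 11.63 (log2 value) in the 6 XX and XXsry arrays and between 3.41 and 4.19 in the 6 arrays with a Y. The brighter Sry probe set lay between 6.74 and 7.20 in the 6 arrays with Sry and between 5.23 and 5.65 in the other 6. The tissue label was borne out by thymocyte markers, of which 7 of 8 had a single-gene probe set, with means over the 7 between 10.62 and 10.79 in every array. Signs of RNA quality were not even: the 3' minus 5' difference of the actin control probe sets averaged 0.73 in XXsry, 0.73 in XX, 0.79 in XY-sry and 0.627 in XY- arrays.

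Of the 17 probe sets, 13 averaged at least 5 on the log2 scale across the 12 arrays and were tested, and these covered 8 of the 9 genes. Both Il6ra probe sets (means 4.37 and 3.63), the second Ms4a4b probe set (2.92) and the fourth Cd44 probe set (2.27) lay below that level. The Cd44, Itgae and Cd24a probe sets each share a gene, so the 13 are not independent of each other.

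Promoter sequences from RefSeq (build GRCm38.p6) were found for 5 of the 9 genes. Those of the 4 among them with a probe set that was lower in males are given here as the 250 bases before the annotated start, since these genes were lower in the same arrays. Capitals mark CACCC or its reverse GGGTG on the strand shown, the box bound by Klf factors.
Klf2, chr8:72318812-72319061, plus strand: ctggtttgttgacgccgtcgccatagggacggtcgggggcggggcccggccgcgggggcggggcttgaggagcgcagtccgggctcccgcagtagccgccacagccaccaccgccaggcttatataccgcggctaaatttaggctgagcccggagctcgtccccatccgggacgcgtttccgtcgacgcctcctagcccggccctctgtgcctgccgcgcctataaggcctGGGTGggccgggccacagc
Cd44, chr2:102901666-102901915, minus strand: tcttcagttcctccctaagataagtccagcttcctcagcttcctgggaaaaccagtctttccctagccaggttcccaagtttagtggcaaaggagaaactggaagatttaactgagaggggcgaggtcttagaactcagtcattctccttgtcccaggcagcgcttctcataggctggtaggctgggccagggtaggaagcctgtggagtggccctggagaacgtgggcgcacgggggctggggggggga
Ms4a4b, chr19:11443308-11443557, plus strand: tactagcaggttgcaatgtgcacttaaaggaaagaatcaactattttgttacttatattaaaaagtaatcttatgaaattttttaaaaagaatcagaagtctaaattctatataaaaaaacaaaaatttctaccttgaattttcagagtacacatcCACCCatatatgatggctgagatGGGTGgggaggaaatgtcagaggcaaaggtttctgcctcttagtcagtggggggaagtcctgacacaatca
Itgb7, chr15:102231936-102232185, minus strand: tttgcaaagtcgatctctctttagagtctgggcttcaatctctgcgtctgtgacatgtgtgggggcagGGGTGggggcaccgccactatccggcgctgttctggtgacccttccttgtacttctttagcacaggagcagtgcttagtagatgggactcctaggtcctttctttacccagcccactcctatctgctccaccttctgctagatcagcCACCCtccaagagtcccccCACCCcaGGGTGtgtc

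CACCC, searched on both strands, occurred 4 times in the Itgb7 window, 2 times in that of Ms4a4b, once in that of Klf2, and not in that of Cd44. Some match is common: 52% of the 32851 promoter windows in the RefSeq table held one. GTAAACA, a site for forkhead factors such as Foxo1, was searched on both strands, was in none of the 4 windows and occurred in 3.17% of all windows. Neither motif overlaps the other, and a match is a description of the letters only.

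Several of these genes were lower in gonadal males. Averaged over both complements, 8 of the 13 probe sets were lower in males (XXsry and XY-sry) than in females (XX and XY-) and 0 were higher, by limma with an adjusted p under 0.05 over all 17925 probe sets tested. Over all probe sets 2.61% were lower and 3.95% were higher by the same rule. The 8 belonged to 5 genes: Cd44 with 3 probe sets, Itgae with 2, and Ms4a4b, Itgb7 and Klf2 with 1 each. S1pr1, Cd69 and the 3 probe sets of Cd24a did not pass. The median difference of the 13 was -0.26, with 12 below zero, while the median over all probe sets tested was 0.02 with 42.2% below zero. In whole thymus, fewer cells of a type and less RNA per cell cannot be told apart. Without XXsry replicate 2 the count was 5, and without XXsry replicate 3 it was also 5.

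In 6 of the 13 probe sets all 6 male arrays lay below all 6 female arrays, a pattern that 1.21% of all probe sets tested had. These were Klf2, Ms4a4b, both Itgae probe sets and 2 of the Cd44 probe sets.

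**Figure D1:**
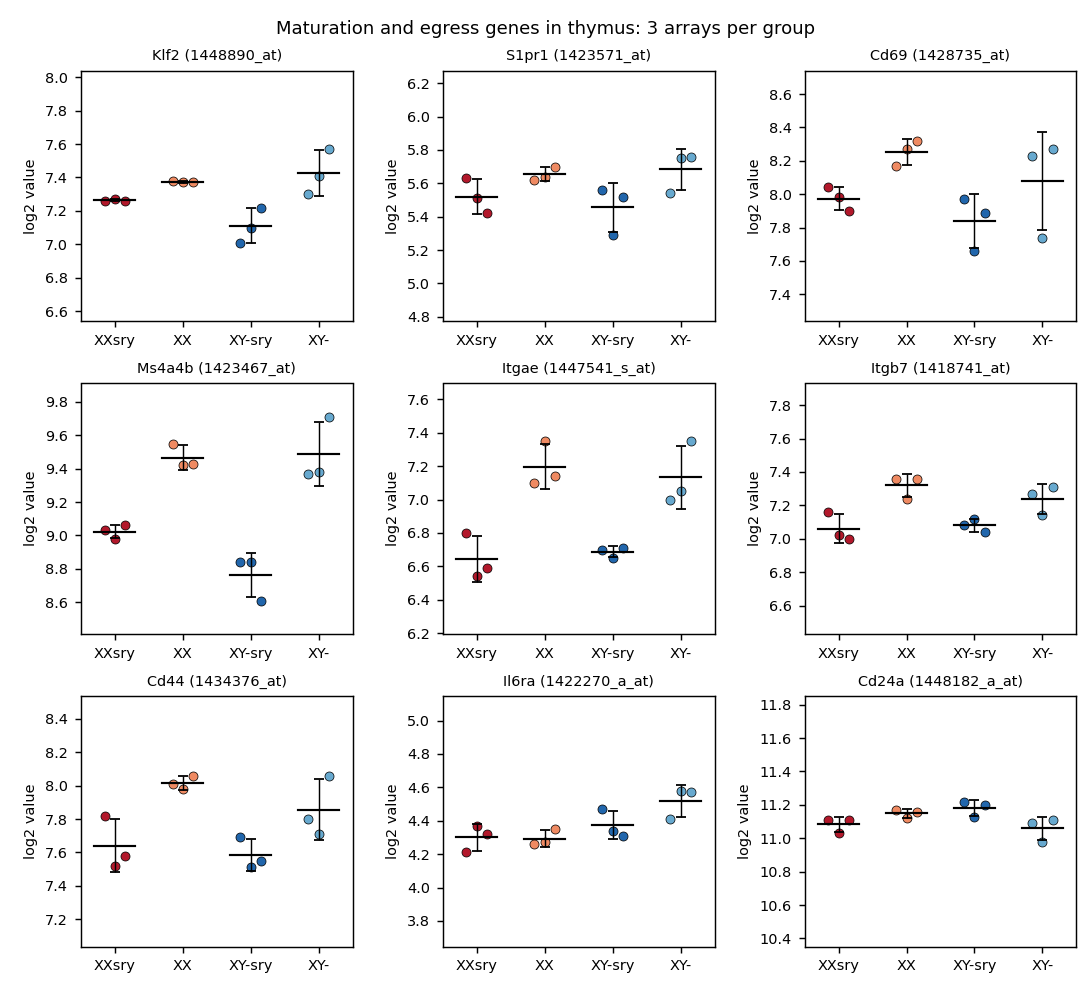
Log2 values of the 9 genes by array, each shown by its brightest probe set; columns are the groups XXsry, XX, XY-sry and XY-, points are the 3 arrays of a group, and bars give the mean and SD. Every panel spans 1.5 log2 units. Klf2, Ms4a4b and Itgae separate males from females fully, Klf2 by a narrow gap, while Cd24a stays within 10.98 to 11.22.

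Klf2, the transcription factor that starts the exit programme, was lower in males by a small step. Its probe set (1448890_at) read 7.26, 7.27 and 7.26 in XXsry arrays and 7.38, 7.37 and 7.37 in XX arrays. It read 7.01, 7.10 and 7.22 in XY-sry arrays and 7.30, 7.41 and 7.57 in XY- arrays. The highest male array (7.27) lay under the lowest female array (7.30). The difference between males and females was -0.21 ± 0.0503 (standard error; limma adjusted p = 0.030). Within complements it was -0.32 ± 0.0711 for XY-sry minus XY- (adjusted p = 0.0204) and -0.11 ± 0.0711 for XXsry minus XX (adjusted p = 0.576). The difference between these was 0.21 ± 0.101 (adjusted p = 0.405), so a larger step in XY- mice was not shown. The limma call for the average did not hold with the actin difference as a covariate (adjusted p = 0.0818), without the filter on low values (0.0763), or without XX replicates 1, 2 or 3 (0.0679, 0.0606 and 0.0588), XXsry replicates 1, 2 or 3 (0.055, 0.0639 and 0.0688) or XY-sry replicates 1 or 2 (0.0673 and 0.0508). The limma call within XY- was lost with the actin covariate (adjusted p = 0.16), with only those groups in the fit (0.12) and without XY-sry replicate 1 (0.0801).

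S1pr1, the exit receptor, lay near the lower end of what was tested. Its probe set (1423571_at) read 5.63, 5.51 and 5.42 in XXsry arrays and 5.62, 5.64 and 5.70 in XX arrays. It read 5.56, 5.29 and 5.52 in XY-sry arrays and 5.54, 5.75 and 5.76 in XY- arrays. Males and females overlapped, with 4 of 6 male arrays below every female array. The difference was -0.18 ± 0.0605, with a 95% interval from -0.31 to -0.05, and it did not pass (limma adjusted p = 0.0951; 0.0632 to 0.198 over the alternatives). S1pr1 was neither shown to be lower nor shown to stay level.

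Cd69, the molecule that holds S1pr1 back, also did not pass. Its probe set (1428735_at) read 8.04, 7.98 and 7.90 in XXsry arrays and 8.17, 8.27 and 8.32 in XX arrays. It read 7.97, 7.66 and 7.89 in XY-sry arrays and 8.23, 7.74 and 8.27 in XY- arrays. In XX mice the groups were apart, whereas XY- replicate 2 (7.74) lay among the males. That array also had the lowest actin 3' minus 5' difference of all, 0.51. The difference was -0.26 ± 0.0888 (limma adjusted p = 0.099), and without XY- replicate 2 it was -0.35 and passed (adjusted p = 0.00798). It also passed with the actin covariate (-0.44, adjusted p = 0.0151) and with array weights (-0.33, adjusted p = 0.00225). The part of RNA quality in this value was not tested beyond that covariate.

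With each gene taken by its brightest probe set, Ms4a4b had the widest range of group means among the 9 genes, 0.72 log2 units. Dimmer Cd44 probe sets had wider ranges, from 5.04 to 6.02 in 1452483_a_at and from 7.17 to 7.92 in 1423760_at. The brighter Ms4a4b probe set (1423467_at) read 9.03, 8.98 and 9.06 in XXsry arrays and 9.55, 9.42 and 9.43 in XX arrays. It read 8.84, 8.84 and 8.61 in XY-sry arrays and 9.37, 9.38 and 9.71 in XY- arrays. All male arrays lay below all female arrays. The difference between males and females was -0.58 ± 0.0661 (limma adjusted p = 0.000747), past the threshold in all 21 alternatives run for it. It was -0.72 ± 0.0935 within XY- (adjusted p = 0.00293) and -0.44 ± 0.0935 within XX, where it missed the threshold (adjusted p = 0.0607), and these did not differ from each other by the interaction test (0.28 ± 0.132, adjusted p = 0.389). In linear terms XY-sry arrays held 60.6% of the XY- level and XXsry arrays 73.5% of the XX level. The call within XY- was lost with only those groups in the fit (adjusted p = 0.0562). The other Ms4a4b probe set (1425325_at), below the filter, had group means from 2.78 to 3.00.

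Itgae, the alpha chain of CD103, was lower in males in both complements. Its brighter probe set (1447541_s_at) read 6.80, 6.54 and 6.59 in XXsry arrays and 7.10, 7.35 and 7.14 in XX arrays. It read 6.70, 6.65 and 6.71 in XY-sry arrays and 7.00, 7.05 and 7.35 in XY- arrays. Males and females did not overlap. The difference was -0.50 ± 0.0711 on average, -0.55 ± 0.101 within XX and -0.45 ± 0.101 within XY- (limma adjusted p = 0.00286, 0.0324 and 0.0206). The second probe set (1449216_at) gave -0.49 ± 0.0731, -0.59 ± 0.103 and -0.38 ± 0.103 in the same order (adjusted p = 0.00404, 0.0294 and 0.0448). Both average differences passed in every alternative run.

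The calls for Itgae within 1 complement were lost in many alternatives. Within XX, the limma adjusted p of 1447541_s_at was 0.0552 without the filter and 0.0602 with replicate number as a block. With arrays left out, the limma adjusted p of 1447541_s_at was 0.0701, 0.126 and 0.0941 without XX replicates 1, 2 and 3. It was 0.148 and 0.127 without XXsry replicates 2 and 3, and 0.0517 and 0.0514 without XY-sry replicates 1 and 3. For 1449216_at it was 0.104, 0.113 and 0.0829 without XX replicates 1, 2 and 3, and 0.0634 and 0.0823 without XXsry replicates 2 and 3. Within XY-, 1447541_s_at had limma adjusted p of 0.0619, 0.0501 and 0.0624 without XY-sry replicates 1, 2 and 3, 0.181 with the actin covariate and 0.0785 with only those groups in the fit. For 1449216_at within XY- the call was lost in 14 of 21 alternatives, including 10 of the 12 fits that left out 1 array (adjusted p up to 0.114 among those). Those arrays were XY-sry replicates 1, 2 and 3, XY- replicates 1, 2 and 3, XX replicates 1, 2 and 3, and XXsry replicate 3 (0.0833, 0.114, 0.0973, 0.0616, 0.0657, 0.112, 0.0642, 0.0597, 0.0557 and 0.0623). The size of the difference stayed between -0.69 and -0.31 over all of these.

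Itgb7, the beta chain that pairs with Itgae and with Itga4, was lower in males by less. Its probe set (1418741_at) read 7.16, 7.02 and 7.00 in XXsry arrays and 7.36, 7.24 and 7.36 in XX arrays. It read 7.08, 7.12 and 7.04 in XY-sry arrays and 7.27, 7.14 and 7.31 in XY- arrays. The groups were apart within each complement, and over both only XXsry replicate 1 (7.16) exceeded a female array. The difference was -0.21 ± 0.0457 (limma adjusted p = 0.0229), -0.26 ± 0.0646 within XX and -0.16 ± 0.0646 within XY-, where neither passed (adjusted p = 0.116 and 0.143). The average call was lost without XX replicates 1 or 3 (limma adjusted p = 0.0581 and 0.0534), XXsry replicates 2 or 3 (0.0572 and 0.0623) or XY-sry replicate 3 (0.0588), and without the filter (0.0633).

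Cd44, the hyaluronan receptor, was lower in males in its 3 tested probe sets, which differed in size. The dimmest of the 3, 1452483_a_at, read 5.63, 5.50 and 5.67 in XXsry arrays and 5.87, 6.05 and 5.79 in XX arrays. It read 4.91, 5.03 and 5.18 in XY-sry arrays and 5.84, 6.14 and 6.09 in XY- arrays. The XY-sry arrays lay below all others, and the XXsry arrays lay between them and the females. The average difference was -0.64 ± 0.0694 (limma adjusted p = 0.000512), with -0.98 ± 0.0981 within XY- (adjusted p = 0.000775) and -0.30 ± 0.0981 within XX (adjusted p = 0.228). In linear terms XY-sry arrays held 50.6% of the XY- level and XXsry arrays 81.0% of the XX level.

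The probe set 1423760_at of Cd44 read 7.66, 7.32 and 7.63 in XXsry arrays and 7.95, 7.98 and 7.82 in XX arrays. It read 7.21, 7.24 and 7.06 in XY-sry arrays and 7.72, 7.78 and 8.04 in XY- arrays. Here too no male array reached a female one. The difference was -0.53 ± 0.0738 (limma adjusted p = 0.00258), with -0.68 ± 0.104 within XY- (adjusted p = 0.00533) and -0.38 ± 0.104 within XX (adjusted p = 0.162). The call within XY- was lost with the actin covariate (adjusted p = 0.0955) and with only those groups in the fit (0.0509).

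The brightest Cd44 probe set, 1434376_at, showed the smallest difference of the 3. It read 7.82, 7.52 and 7.58 in XXsry arrays and 8.01, 7.98 and 8.06 in XX arrays. It read 7.69, 7.51 and 7.55 in XY-sry arrays and 7.80, 7.71 and 8.06 in XY- arrays. The groups were apart within each complement, and over both XXsry replicate 1 (7.82) exceeded 2 XY- arrays. The difference was -0.33 ± 0.069 (limma adjusted p = 0.0209), with -0.38 ± 0.0976 within XX and -0.27 ± 0.0976 within XY- (adjusted p = 0.132 and 0.103). Its average call was lost without XXsry replicates 2 or 3 (limma adjusted p = 0.0524 and 0.0559) or XY-sry replicate 3 (0.0525). The fourth probe set (1443265_at), with group means from 2.18 to 2.30, was near the bottom of the range in every group.

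**Figure D2:**
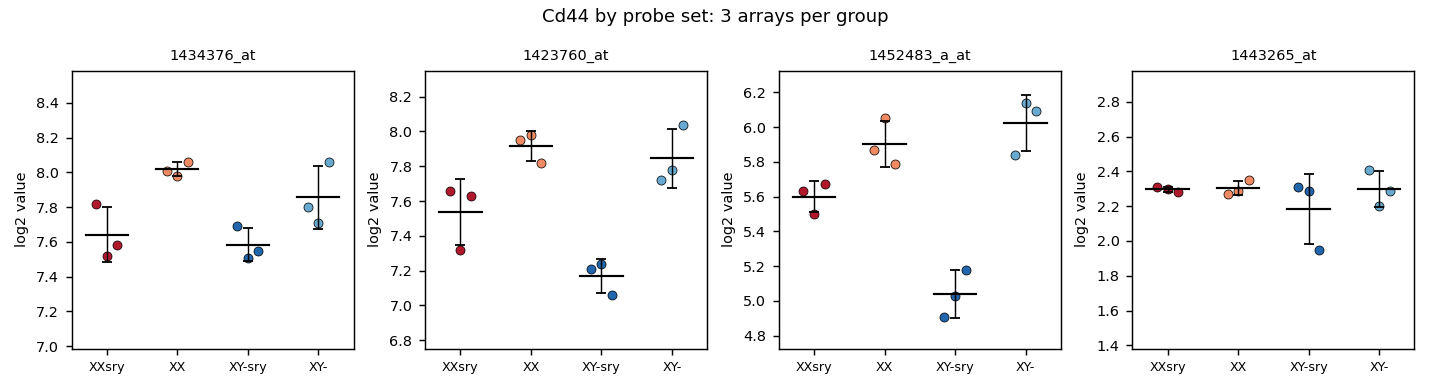
Log2 values of the 4 Cd44 probe sets by array, in the groups XXsry, XX, XY-sry and XY- with 3 arrays each; bars give the mean and SD, and each panel spans 1.6 log2 units. XY-sry stands lowest in 1423760_at and 1452483_a_at, XXsry and XY-sry are close in 1434376_at, and 1443265_at stays between 1.95 and 2.41.

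Whether the Sry effect differed between complements was tested as the effect in XX minus that in XY-. It passed for 1 of the 13 probe sets, Cd44 1452483_a_at, at 0.68 ± 0.139 (limma adjusted p = 0.0405), where 1.29% of all probe sets passed in either direction. The other Cd44 probe sets gave 0.30 ± 0.148 for 1423760_at and -0.10 ± 0.138 for 1434376_at, short of the threshold (adjusted p = 0.417 and 0.807), so the gene's probe sets pointed in different directions. The call was lost in 12 of 19 alternatives: with the actin covariate (0.46, adjusted p = 0.341), without the filter (adjusted p = 0.0639) and without 10 of the 12 arrays in turn. In the order XXsry, XX and XY-sry replicates 1, 2 and 3, and then XY- replicate 2, the limma adjusted p without that array was 0.091, 0.0834, 0.116, 0.106, 0.0557, 0.0971, 0.109, 0.0517, 0.0658 and 0.0635.

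**Figure D3:**
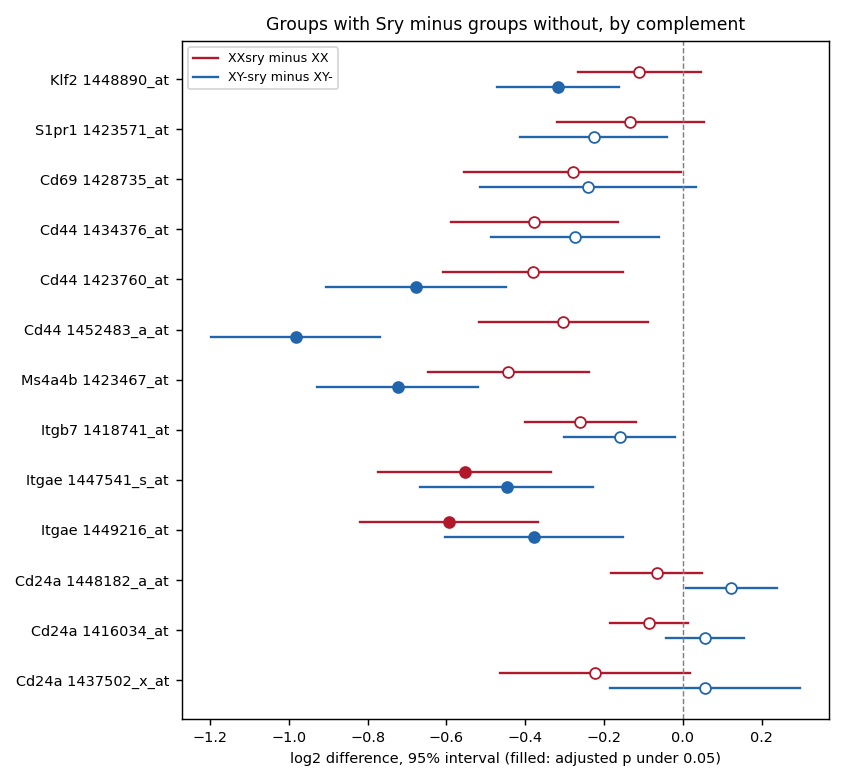
Log2 differences of the 13 tested probe sets for XXsry minus XX and for XY-sry minus XY-, with 95% intervals from limma; filled points have an adjusted p under 0.05. All 13 values for XX lie below zero, and Cd44 1452483_a_at has the widest gap between complements.

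Within XX, 2 of the 13 probe sets were lower in XXsry than in XX arrays, both of Itgae, where 0.351% of all probe sets were lower. Within XY-, 6 were lower in XY-sry than in XY- arrays, where 4.37% of all were: Klf2, Ms4a4b, 2 of Cd44 and 2 of Itgae. None was higher in either (limma), where 0.391% and 4.27% of all probe sets were. At an unadjusted p under 0.05, 8 of 13 were lower within XX, against 6.11% of all probe sets, and 9 of 13 were lower within XY-, against 9.26% of all. Within XY-, Cd24a 1448182_a_at was higher at that level. Arrays of the compared groups did not overlap, with the males lower, for 12 of 13 probe sets within XX and 8 of 13 within XY-, against 10.6% and 9.39% of all probe sets. The exception within XX was S1pr1. With the actin covariate the count within XY- was 2, Ms4a4b and Cd44 1452483_a_at, and with only those groups in the fit it was 1. Without XY-sry replicate 1 it was 3. Within XX the count was 0 without XX replicates 1, 2 or 3 or XXsry replicates 2 or 3, 1 without XY-sry replicates 1 or 3, 1 with replicate number as a block, and 7 with array weights.

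Across the diagonal of the design, 5 of 13 were lower in XY-sry than in XX arrays (0.781% of all probe sets), and 2 of 13 were lower in XXsry than in XY- arrays (0.296% of all). The 5 were Ms4a4b, both Itgae probe sets and Cd44 1423760_at and 1452483_a_at, with differences from -0.86 ± 0.0981 for the last to -0.49 ± 0.103 for Itgae 1449216_at (limma adjusted p = 0.00125 and 0.0435). The 2 were Itgae 1447541_s_at at -0.49 ± 0.101 and Ms4a4b at -0.46 ± 0.0935 (adjusted p = 0.0438 and 0.0418). The first count was 3 without XXsry replicate 3, any XX array or any XY-sry array, and 8 without XY- replicate 2. The second was 0 or 1 in all fits that left out 1 array except the one without XXsry replicate 1, where it was 2. These comparisons share arrays with those above. A test for any difference among the 4 groups passed for the same probe sets as XY-sry minus XX, 5 of 13, against 3.99% of all, and for 8 without XY- replicate 2.

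By complement no member passed. None of the 13 probe sets differed between XX mice (XX and XXsry) and XY mice (XY- and XY-sry) by limma, where 0.0893% of all probe sets did, and 2 of 13 had an unadjusted p under 0.05, against 4.25% of all. These were Cd44 1452483_a_at, higher by 0.22 ± 0.0694, and Cd44 1423760_at, higher by 0.22 ± 0.0738 (adjusted p = 0.998 for both). The differences of the 13 ran from -0.005 to 0.22, with a median of 0.05. Between XX and XY- arrays 0 of 13 passed (0.0781% of all), and 1 of 13 had an unadjusted p under 0.05, against 10.6% of all. Between XXsry and XY-sry arrays 0 passed as well (0.128% of all), and 3 of 13 had an unadjusted p under 0.05, against 8.55% of all. The nearest was Cd44 1452483_a_at, at 0.56 ± 0.0981 with a 95% interval from 0.35 to 0.77 and adjusted p = 0.0668. It passed with array weights, with the replicate number as a block, with an intensity trend, with only those groups in the fit, and without XY- replicate 2, as 1 probe set in each except array weights, where 2 passed.

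Both male group means lay below both female group means in every tested member except Cd24a, while the order within a sex varied. XY-sry had the lowest group mean and a female group the highest in Klf2, S1pr1, Cd69, Ms4a4b and all 3 tested Cd44 probe sets, while for Itgae and Itgb7 the lowest was XXsry and the highest XX. How often these orders of group means occur among all probe sets tested was not counted, so they describe the members only. Neighbours within a sex were not told apart: no member passed between XX and XY-, or between XXsry and XY-sry.

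Cd24a, which thymocytes lose as they mature, did not pass for gonadal sex in any of its 3 probe sets. It was the brightest member, and 1448182_a_at read 11.11, 11.03 and 11.11 in XXsry arrays and 11.17, 11.12 and 11.16 in XX arrays. It read 11.22, 11.13 and 11.20 in XY-sry arrays and 11.09, 10.98 and 11.11 in XY- arrays. Males lay below females in XX and above them in XY-, by -0.07 ± 0.0531 and 0.12 ± 0.0531 (limma adjusted p = 0.661 and 0.166), and the difference between these was -0.19 ± 0.0751 (adjusted p = 0.287). The average was 0.03, with a 95% interval from -0.05 to 0.11. The probe sets 1416034_at and 1437502_x_at gave -0.02 and -0.08, with intervals from -0.08 to 0.05 and from -0.25 to 0.09.

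Il6ra stayed below the filter in both probe sets. Its brighter one (1422270_a_at) read 4.21, 4.37 and 4.32 in XXsry arrays and 4.26, 4.27 and 4.35 in XX arrays. It read 4.47, 4.34 and 4.31 in XY-sry arrays and 4.41, 4.58 and 4.57 in XY- arrays. XY- had the highest mean, with its arrays above every XX and every XXsry array and overlapping those of XY-sry. In the fit without the filter, XX minus XY- was -0.23 ± 0.0751 and males minus females -0.07 ± 0.0531, and neither passed (limma adjusted p = 0.463 and 0.6).

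The wider programme was described by 4 further lists, with the brightest probe set standing for each gene. Of 16 genes known to rise as single-positive cells mature, 13 were tested, and 9 fell and 1 rose in males (limma), with a median of -0.33. Of all probe sets tested, 2.61% were lower and 3.95% higher. Slfn1 (-0.74 ± 0.0901), Il7r, the interleukin-7 receptor (-0.52 ± 0.0807), the chemokine Ccl5 (-0.50 ± 0.083) and Slfn2 (-0.34 ± 0.0463) had the smallest p among those that fell (adjusted p = 0.00129, 0.00466, 0.00651 and 0.0023). Bcl2, which protects lymphocytes from death, rose by 0.29 ± 0.0633 (adjusted p = 0.0232). The count past the threshold was 6, all lower, without XXsry replicate 3, XX replicates 1 or 3, or XY-sry replicate 1. Bcl2 did not pass in those 4 fits, without XY-sry replicate 3 or with the actin covariate (adjusted p = 0.0621, 0.0523, 0.0549, 0.0508, 0.0542 and 0.0712). The list was chosen with earlier results of these data known, so its direction is not independent evidence.

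Among genes of the exit machinery, 14 of 16 were tested, and 2 rose while 0 fell in males (limma), beside 3.95% higher and 2.61% lower among all probe sets. Sphk1, a kinase that makes sphingosine-1-phosphate, had group means of 5.32 in XXsry, 4.90 in XX, 5.40 in XY-sry and 4.69 in XY-, a difference of 0.56 ± 0.111 (adjusted p = 0.0153). Plpp3, a lipid phosphatase of thymic stroma that degrades the same lipid, had 7.37, 7.03, 7.31 and 7.03 in that order, a difference of 0.31 ± 0.0733 (adjusted p = 0.0314). Both female means of Sphk1 lay under the filter level of 5, so it passed the filter only through the male groups, where it was higher. The median of the list was -0.03. Over fits that left out 1 array the count was 1 without XXsry replicates 1 or 2, XX replicates 2 or 3, XY-sry replicates 1 or 3 or XY- replicate 1, and 3 without XY- replicate 2. With array weights it was 6, with 2 higher and 4 lower. Plpp3 lost its call in 10 alternatives, with the actin covariate (0.18, limma adjusted p = 0.158), without the filter (0.0624), and without XXsry replicates 1, 2 or 3 (0.0643, 0.0605 and 0.0655), XX replicates 2 or 3 (0.0709 and 0.0654), XY-sry replicates 1 or 3 (0.0693 and 0.0746) or XY- replicate 1 (0.0612).

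Of 12 genes listed for immature thymocytes, 11 were tested, with a median of -0.05. The list includes Cd4 and Cd8a, which are also among the general thymocyte markers, so it does not stand for immature cells alone. Only Rag2, of the recombinase that assembles receptor genes, fell (-0.19 ± 0.0408, limma adjusted p = 0.0222), beside 2.61% lower among all probe sets. It lost its call with the actin covariate (adjusted p = 0.0693), without the filter (0.071), and without XXsry replicates 2 or 3 or XY-sry replicate 1 (0.0533, 0.061 and 0.0508). Of 14 ligands and partners of the 9 genes, 8 were tested and 0 passed (limma), with a median of 0.01. The integrin ligand Vcam1 (-0.25 ± 0.0712) and Itga4, the other alpha chain that pairs with Itgb7 (0.16 ± 0.0571), had the smallest p (adjusted p = 0.0556 and 0.112). Vcam1 passed in 8 of its alternatives, among them those without XY-sry replicate 1 (-0.31, adjusted p = 0.0218) and without XY- replicate 2 (-0.28, adjusted p = 0.0401). Il6 and Madcam1, ligands of Il6ra and of the Itga4 and Itgb7 pair, had means of 2.46 and 3.29 and were not tested.

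**Figure D4:**
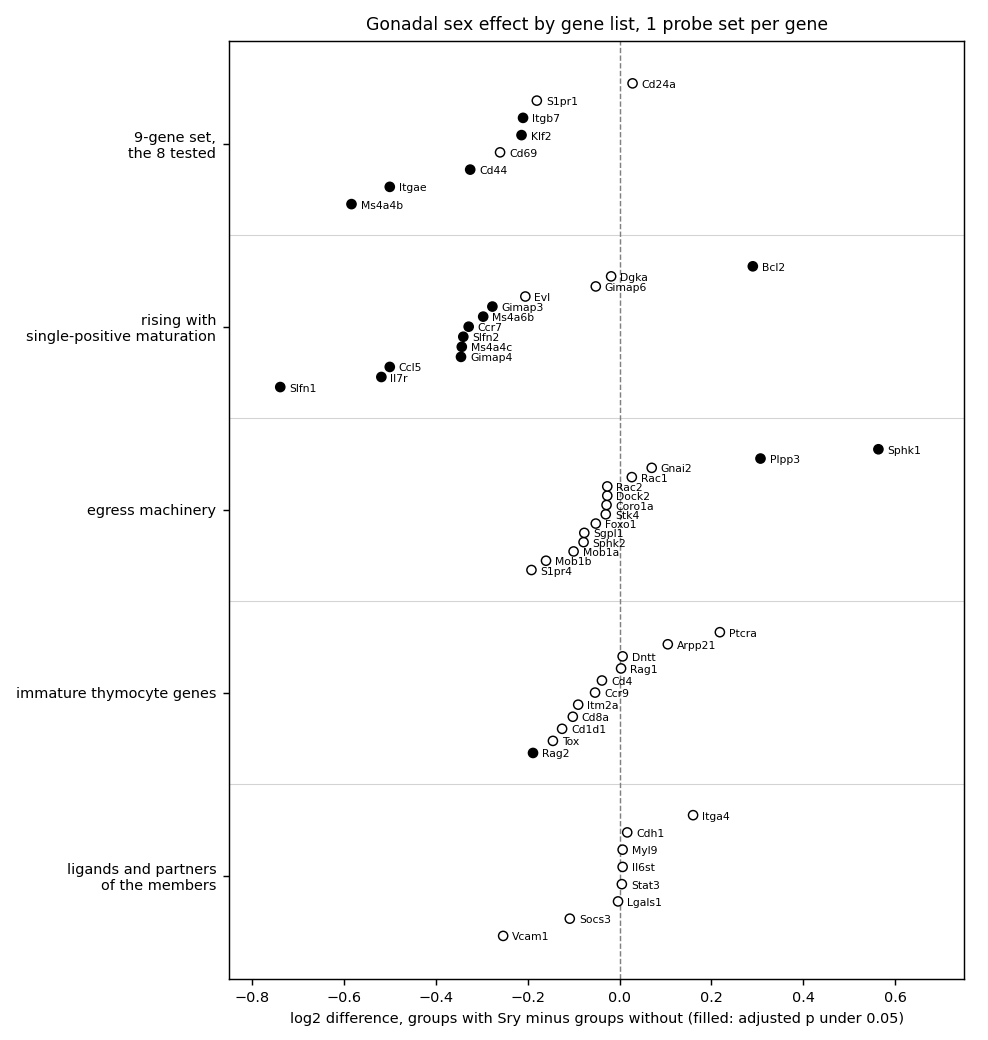
Log2 differences of males (XXsry and XY-sry) minus females (XX and XY-) for each gene of the 9-gene set that was tested and of 4 further lists, 1 probe set per gene; filled points have an adjusted p under 0.05. The tested genes of the 9-gene set lie left of zero except Cd24a. Most points of the single-positive maturation list lie left of zero with Bcl2 to the right. The exit machinery has Sphk1 and Plpp3 to the right, and the immature thymocyte list and the list of ligands and partners centre near zero.

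Several of the 9 genes are also used by cells other than single-positive thymocytes, so markers of those cells were read on the same arrays. Of 8 innate-like T and natural killer markers 7 had a single-gene probe set and 4 were tested. Of these, Cxcr6 (-1.49), Klrd1 (-1.26) and Nkg7 (-0.68) fell in males and Gzma (0.20) rose (limma adjusted p = 3.01e-05, 0.00156, 0.000245 and 0.036). Cxcr6 averaged 4.93 in XXsry and 4.74 in XY-sry arrays, and Klrd1 4.57 and 4.68, all under the filter level of 5. Both passed the filter only through the female groups, where they were higher. The mean log2 value of the 7 ran from 4.97 to 5.08 in XXsry, 5.47 to 5.61 in XX, 5.02 to 5.10 in XY-sry and 5.36 to 5.57 in XY- arrays, so males and females did not overlap. Their summed linear level, most of it Gzma, ran from 708 to 743, 809 to 816, 703 to 783 and 701 to 833 in the same groups. Of the defining markers Ncr1, Eomes and Zbtb16 lay below the filter, at 2.99, 3.26 and 4.21. Their differences, males minus females, were 0.12, -0.21 and -0.03, so Ncr1 did not go the way of Cxcr6, Klrd1 and Nkg7. The part of these cells in the differences of Ms4a4b, Cd44, Itgae and Itgb7 was not tested.

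Thymocyte markers did not pass in 7 of 7 (limma, median -0.05), and their summed level ran from 12600 to 12900 in XXsry, 12800 to 14200 in XX, 12700 to 13000 in XY-sry and 13200 to 13600 in XY- arrays. Of 5 dendritic cell and macrophage markers tested 0 passed, with a median of -0.10, and their sums were 910 to 1060, 1000 to 1120, 886 to 997 and 1000 to 1200 in that order. Of 4 B cell markers Ms4a1 fell (-0.59, adjusted p = 0.021). Of 4 neutrophil markers 0 passed, with a median of -1.21 and limma adjusted p from 0.0597 to 0.0834. The summed level of the 5 neutrophil markers with a single-gene probe set ran from 144 to 460 in XXsry and 385 to 831 in XX arrays. That sum ran from 175 to 492 in XY-sry and 491 to 1350 in XY- arrays. Endothelium, which also uses Klf2 and S1pr1, had 0 of 2 tested past and a median of 0.01. Its markers Cdh5, Tie1, Tek and Emcn, below the filter at 3.71, 3.35, 3.22 and 3.30, were higher in males by 0.255, 0.305, 0.157 and 0.325. The mean log2 value of all 6 endothelial markers ran from 4.35 to 4.44 in XXsry and 4.21 to 4.32 in XX arrays. It ran from 4.36 to 4.56 in XY-sry and 4.15 to 4.36 in XY- arrays. Thymic epithelium had 0 of 6 past and a median of 0.04. Of 5 fibroblast markers Dcn (0.40) and Lum (0.48) rose (adjusted p = 0.00752 and 0.024), and 0 of 3 red cell markers reached the filter. The part of any of these cells was not tested.

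Genes with the most similar profile were found for the 3 members with the widest range of group means, each taken by its brightest probe set. Likeness was the mean absolute difference between centred log2 profiles over the 12 arrays, among 9495 other genes. For Ms4a4b, whose own mean deviation was 0.292, the nearest were AW112010 (0.085), Rtp4 (0.0901), Nkg7 (0.091) and Trim30a (0.0925). For Itgae, at 0.25, they were Nlrc5 (0.0683), Serpinb1a (0.0843), Fscn1 (0.0867) and Capg (0.0897). For Cd44 by 1434376_at, at 0.181, they were Arsb (0.0522), Gm20559 (0.0568), Gadd45b (0.0575) and Maf (0.0594). All 12 had a higher mean in both female groups than in both male groups, a direction that choosing them for their likeness to these members fixes.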

How the data were processed

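Total RNA of whole thymus was hybridised to 12 one-colour Affymetrix arrays. The values are log2 intensities made by the authors using RMA (per the submitters' processing notes); they were used as deposited; RMA shrinks differences near background. Probe sets were named by GEO's platform annotation: 34958 had 1 symbol, 932 several and 9211 none. After removing 64 controls, the 17925 probe sets averaging 5 or more (log2) were tested with limma 3.58.1 (R 4.3.3): a mean per group, 8 residual and 3.71 prior degrees of freedom, and Benjamini-Hochberg adjusted p under 0.05 over all of them. Errors are standard errors from that fit. The steps were tested on simulated data. Array number, 3 per group, limits the precision. The labels call the replicates biological. They give no batch. Same-numbered arrays were not treated as pairs in the main fit. The 9 genes, the lists and the tests were chosen with earlier results of these data known. Named list genes are the few with the smallest p. Alternatives changed the filter, scaling, variance model, array weights, actin covariate, threshold, arrays and groups fitted.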

Additional observations from a re-analysis of the deposited data

Results flagged for a closer look

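The Cd44 probe set 1452483_a_at differed in its Sry effect between complements, by the interaction test in limma (0.68 ± 0.139, adjusted p = 0.0405). The call was lost in 12 of 19 alternatives, among them the actin covariate (0.46, limma adjusted p = 0.341) and 10 of the 12 fits that left out 1 array, and the brightest Cd44 probe set, 1434376_at, gave -0.10 ± 0.138 (adjusted p = 0.807). XY-sry arrays averaged 5.04 against 6.02 in XY- arrays, and XXsry arrays averaged 5.60 against 5.90 in XX arrays (log2, n = 3 each). All 3 XY-sry arrays lay below all 3 XY- arrays, and all 3 XXsry arrays below all 3 XX arrays.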

How the results depend on the processing

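Signs were followed for the gonadal sex effect in the 13 probe sets and in the named genes of the 4 further lists. They were also followed for the members past the threshold in the interaction and in the Sry effect within each complement. Among these, no difference past the threshold changed sign under any alternative run. Signs of the other calls were not followed one by one. Cd24a 1448182_a_at, not past it for gonadal sex (0.03), was -0.02 with the actin covariate. The count of the 13 probe sets past the threshold changed by over 1.5 times in these cases, and the cause was not tested unless given. Without the filter it was 0 for the interaction, 1 for Sry in XX, 3 for XY-sry minus XX and 0 for XXsry minus XY-. A mean of at least 6 removes Cd44 1452483_a_at, so that the interaction had 0 without testing it again. Median centring gave 0 for XXsry minus XY-, and an intensity trend gave 1 for complement with Sry. Array weights gave 7 for Sry in XX, 2 for complement with Sry, 9 for XY-sry minus XX, 7 for XXsry minus XY- and 9 for any difference. The actin covariate gave 0 for the interaction, 2 for Sry in XY- and 0 for XXsry minus XY-. An adjusted p under 0.1 gave 1 for complement with Sry, 8 for XY-sry minus XX, 4 for XXsry minus XY- and 8 for any difference. With only the groups compared, Sry in XY- had 1, complement with Sry 1 and XXsry minus XY- 0. One probe set per gene also removes that Cd44 probe set and gave 0 for the interaction.

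With the replicate number as a block, the count was 8 for gonadal sex, 1 for Sry in XX, 1 for complement with Sry and 0 for XXsry minus XY-. Correlations of same-numbered arrays over 18 pairs ran from -0.083 to 0.306, with 8 over 0.1, and 6 of 12 arrays correlated best with their own number. These values do not settle whether same-numbered arrays shared handling, and the main fit did not take the numbers as pairs.

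Leaving out 1 array at a time gave 5 to 9 for gonadal sex, 0 to 0 for complement, 0 to 1 for the interaction, 0 to 3 for Sry in XX, 3 to 6 for Sry in XY-, 0 to 0 for complement without Sry, 0 to 1 with Sry, 3 to 8 for XY-sry minus XX, 0 to 2 for XXsry minus XY- and 4 to 8 for any difference. Signal near background limits S1pr1, Il6ra, Cd44 1452483_a_at and, among the other genes named, Sphk1, Cxcr6 and Klrd1.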
